A study of Mus musculus with 2 samples.

Results

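The Mir200 family comprises 5 microRNA genes, Mir200a, Mir200b, Mir200c, Mir141 and Mir429, and was followed here in the stomach of mouse embryos. The members were found by name, through their Ensembl identifiers in the GENCODE annotation, and all 5 were among the 1973 genes counted. Small RNA below 30 nt from total RNA was sequenced from whole stomachs of strain B6NCrl at 14.5 days of development. There was 1 group of 2 libraries, each a biological replicate from the stomach of a pup collected on its own day. No treatment, genotype or age varied between them. The labels give the sex of both as male and female pooled, which is at odds with a stomach from a single pup, and sex was not used. The files held 5004548 gene counts in replicate 1 and 4679914 in replicate 2, and levels are given as counts per 1000000 gene counts (CPM).

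The family is known for its part in keeping cells epithelial. Its members repress the messenger RNAs of Zeb1 and Zeb2, transcription factors that silence epithelial genes such as Cdh1, and the ZEB proteins in turn repress transcription of the Mir200 genes, so that each side holds the other down. A microRNA finds its targets mainly through its seed, the bases 2 to 8 from its 5′ end, and members with different seeds can have different targets. The embryonic stomach is an epithelial tube within mesenchyme, and the Mir200 family is known from epithelia, including those of the gut. The tables count miRNA genes, so that source is background and was not measured here. A whole-organ library holds all of these tissues, so a lower level through fewer epithelial cells and through less microRNA per cell cannot be told apart.

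The mature sequences of the 3p arm, known as the main product of these precursors, divide the family into 2 seed groups. They are printed 5′ to 3′ from RefSeq (GRCm38.p6) with the seed in capitals, because the seed is what separates the groups, and all 5 members were found in that table.
miR-429-3p: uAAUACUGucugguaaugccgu
miR-200b-3p: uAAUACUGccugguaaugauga
miR-200c-3p: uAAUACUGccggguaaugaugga
miR-200a-3p: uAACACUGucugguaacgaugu
miR-141-3p: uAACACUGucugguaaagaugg
Mir429, Mir200b and Mir200c share the seed AAUACUG, and Mir200a and Mir141 share AACACUG. The seeds differ by the single substitution C4U, written from Mir200a to Mir200b with positions counted from the 5′ end of the mature sequence. Neither seed occurred in any mature sequence outside the family among the 1738 of the table.

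The seed groups cut across the genome. Mir200b, Mir200a and Mir429 lie in this order along transcription within 1846 nt of chromosome 4 (GRCm38, minus strand). Mir200b occupies 156055681 to 156055750, Mir200a 156054896 to 156054985 and Mir429 156053905 to 156053987. Mir200c (124718322 to 124718390) and Mir141 (124717914 to 124717985) lie within 477 nt of chromosome 6, also on the minus strand. Each cluster thus holds genes of both seeds.

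The hosts of the precursors also differ. All 3 genes of the chromosome 4 cluster fall in the first intron of Ttll10, a coding gene on the same strand. In the non-coding transcript Gm13648, which covers the cluster on that strand, Mir200b and Mir200a are in intron 1, whereas Mir429 lies wholly in exon 2. Mir200c and Mir141 are in intron 1 of the non-coding transcript Gm15884, and 31 nt of the Mir141 precursor also overlap the exon of the unclassified gene Gm29008.

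Sequence and position gave different pairings of the genes. Across clusters, the 3p sequences of Mir200a and Mir141 were identical at 20 of 22 bases, with A17C and G22U from Mir141 to Mir200a, and those of Mir200b and Mir200c also at 20 of 22, with U11G and A22G from Mir200b to Mir200c. Within a cluster the identity was lower, 18 of 22 bases for each of the 4 pairs. Mir429 stood farthest from Mir200c and Mir141, at 17 of 22 bases, as did Mir200a from Mir200c. A read from the 5′ end of the 3p arm of Mir200a or Mir141 can be told apart only if it reaches base 17.

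The 5p arms, which come from the opposite side of each hairpin and are counted under the same gene, were less alike. They are shown, again with bases 2 to 8 in capitals, because they do not follow the grouping of the 3p seeds.
miR-429-5p: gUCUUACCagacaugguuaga
miR-200b-5p: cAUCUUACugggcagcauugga
miR-200c-5p: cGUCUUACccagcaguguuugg
miR-200a-5p: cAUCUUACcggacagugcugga
miR-141-5p: cAUCUUCCagugcaguguugga
Mir200a and Mir200b, of the same cluster but of different 3p seeds, share the 5p seed AUCUUAC, and the other 3 genes each have their own. The tables count a precursor as a whole, so the share of each arm in a level is not known, and grouping by seed here means by the seed of the 3p arm.

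The precursors of the highest and the lowest member are shown with both mature arms in capitals, to make plain what a gene count covers.
Mir429 precursor: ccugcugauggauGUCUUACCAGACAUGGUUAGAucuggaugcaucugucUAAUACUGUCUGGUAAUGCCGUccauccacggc
Mir200a precursor: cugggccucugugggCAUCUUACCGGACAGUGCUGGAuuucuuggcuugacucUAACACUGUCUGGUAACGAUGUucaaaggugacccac
The Mir429 precursor is 83 nt long with a GC content of 49.4% and a predicted minimum free energy of -34.7 kcal/mol, and that of Mir200a is 90 nt long with 52.2% GC and -42.9 kcal/mol. The precursors of Mir200b (70 nt, -30.8 kcal/mol), Mir200c (69 nt, -31.6 kcal/mol) and Mir141 (72 nt, -35.2 kcal/mol) are shorter. The longest stretch shared by any pair of members was 17 nt, between Mir200a and Mir141, and none of the 10 mature sequences occurred in another precursor of the table.

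Mir429, the last gene of the chromosome 4 cluster, was the most abundant member. It had 102923 counts in replicate 1 and 90075 in replicate 2, or 20565.9 and 19247 CPM, and ranked 11 and 12 among all genes. Its mean was 19907 ± 932 CPM (SD, n = 2). Mir429 alone held 49.6% of the family counts in replicate 1 (95% Clopper-Pearson interval 49.4 to 49.8) and 46.4% in replicate 2 (46.2 to 46.6). Reads mapped to several places, 27.8% of all reads in replicate 1 and 27.4% in replicate 2, are counted for no gene. Ranks of the members, here and below, can therefore be too high against miRNAs with several gene copies.

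Mir200c, the first gene of the chromosome 6 cluster, came next. It had 55954 and 58317 counts, or 11181 CPM in replicate 1 and 12461 CPM in replicate 2, a mean of 11821 ± 905 CPM (SD, n = 2). Its share of the family was 27.0% and 30.0%, higher in the library in which Mir429 was lower. It ranked 19 in both libraries.

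Mir200b, the first gene of the chromosome 4 cluster, was nearly equal in the libraries. It had 35058 and 33084 counts, or 7005 and 7069 CPM, a mean of 7037 ± 45.3 CPM (SD, n = 2) and a rank of 29 in both. It made up 16.9% and 17.0% of the family.

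The AACACUG genes were far below these 3. Mir141 had 8002 and 7359 counts, or 1599 and 1572 CPM, a mean of 1586 ± 18.7 CPM (SD, n = 2). Mir200a was lowest, with 5445 and 5298 counts, or 1088 and 1132 CPM, a mean of 1110.04 ± 31.2 CPM (SD, n = 2). They ranked 81 and 103 in replicate 1 and 82 and 99 in replicate 2, which still placed both among the upper part of the 361 detected genes, those with at least 10 counts in each library.

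**Figure D1:**
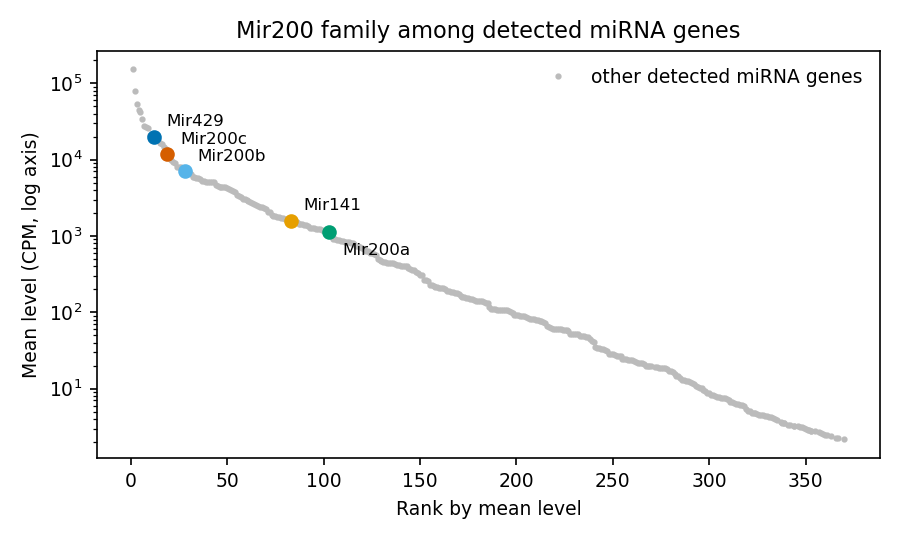
Mean level in CPM (log axis) of the 361 detected miRNA genes against their rank, with the 5 Mir200 family genes in colour. Mir429, Mir200c and Mir200b stand at ranks 12, 19 and 28 by mean level, and Mir141 and Mir200a at 83 and 103. Reads mapped to several places are counted for no gene, so miRNAs with several gene copies can rank too low.

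The order Mir429, Mir200c, Mir200b, Mir141, Mir200a was the same in both libraries. For each of the 10 pairs of members, the lower library of the higher gene exceeded the higher library of the lower gene. The closest neighbours were Mir141 and Mir200a, with a lowest value of 1572 CPM against a highest of 1132 CPM. The members were measured in the same libraries, and with 2 libraries an exact paired permutation test, two-sided, cannot give a p below 0.5 (0.333 for 2 values against 2 unpaired), so no pair could pass a threshold in an exact test. Reads per molecule were not measured for any miRNA and may differ between them. Comparisons between genes, clusters and seed groups are therefore of reads and not of molecules. Small RNA reads are shorter than any of these precursors, so levels were not divided by precursor length. The order was the same when they were.

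**Figure D2:**
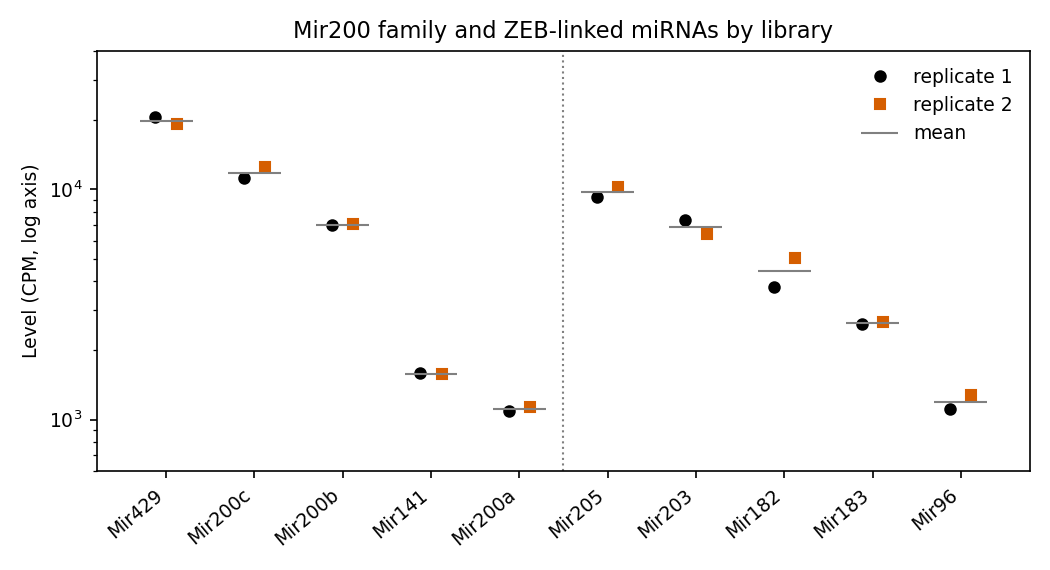
Level in CPM (log axis) of each gene in replicate 1 (circles) and replicate 2 (squares), with grey lines for the mean of the 2 libraries; Mir200 family genes are left of the dotted line and ZEB-linked miRNAs right of it. Mir429 is lower and Mir200c higher in replicate 2, while the points of Mir200b, Mir141 and Mir200a nearly coincide.

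The first comparison was between the genomic clusters. The chromosome 4 cluster totalled 28659 CPM in replicate 1 and 27449 CPM in replicate 2, and the chromosome 6 cluster 12780 and 14034 CPM. The chromosome 4 cluster was thus 2.24-fold higher in replicate 1 and 1.96-fold higher in replicate 2, a log2 ratio of 1.07 ± 0.14 (SD, n = 2). It held 69.2% (95% Clopper-Pearson interval 68.96 to 69.36) and 66.2% (65.96 to 66.38) of the family. The direction rested on Mir429: without it, the remaining pair, Mir200b and Mir200a, lay below the chromosome 6 cluster, at a log2 ratio of -0.72 ± 0.08.

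Levels within a cluster were unequal although the precursors lie side by side. In the chromosome 4 cluster, Mir429 made up 70.9% ± 1.16 of the counts (SD, n = 2), Mir200b 25.1% ± 0.93 and Mir200a 3.96% ± 0.23. Mir429, the third precursor along transcription, exceeded Mir200a, the second, by 18.9-fold in replicate 1 and 17.0-fold in replicate 2. Mir200b, the first, exceeded Mir200a by 6.44-fold and 6.24-fold. The level was thus lowest at the middle precursor and highest at the last. In the chromosome 6 cluster, Mir200c made up 88.1% ± 0.92 and Mir141 11.9% ± 0.92, a 6.99-fold difference in replicate 1 and 7.92-fold in replicate 2.

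**Figure D3:**
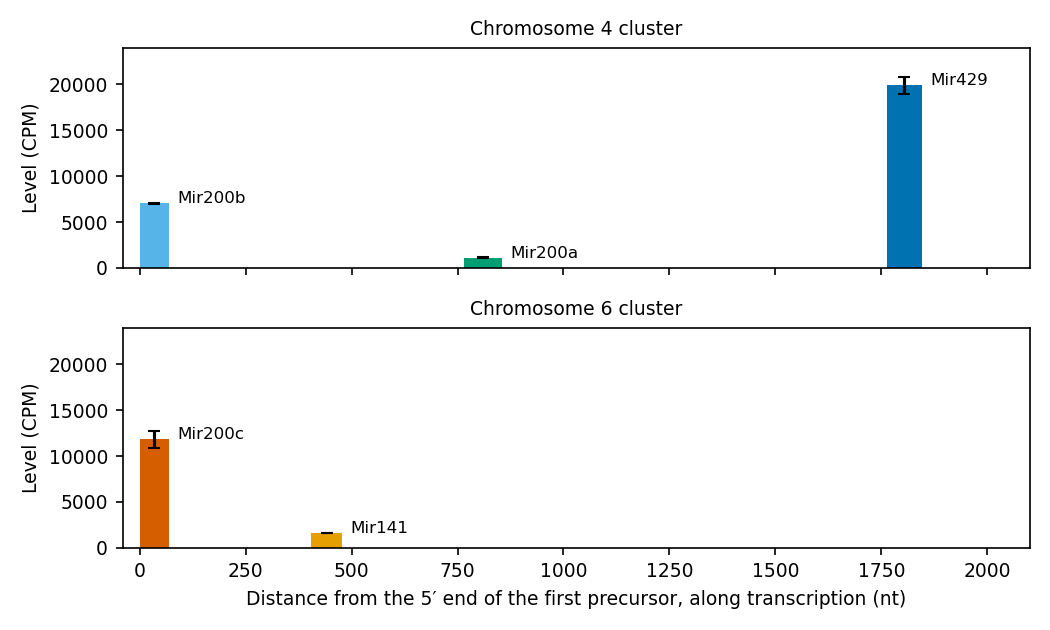
Mean level in CPM of each precursor (bars as wide as the precursor, error bars SD of 2 libraries) against its distance in nt from the 5′ end of the first precursor of its cluster, along transcription. In the chromosome 4 cluster the middle gene, Mir200a, is lowest and the last, Mir429, highest; in the chromosome 6 cluster the first gene, Mir200c, is the higher.

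The second comparison was between the seed groups. The AAUACUG genes together reached 38752 CPM in replicate 1 and 38778 CPM in replicate 2, and the AACACUG genes 2687 and 2705 CPM. The ratio was 14.4-fold in replicate 1 and 14.3-fold in replicate 2, a log2 ratio of 3.85 ± 0.006 (SD, n = 2). AAUACUG genes thus held 93.5% of the family counts in both libraries. The seed ratio was larger than the cluster ratio and moved less between the libraries, by -0.008 on the log2 scale against -0.20 for the cluster ratio. Mir429 and Mir200c, which moved in opposite directions, are added together in the seed ratio and set against each other in the cluster ratio. Within a cluster the contrast of the seeds moved more: Mir429 with Mir200b over Mir200a by -0.12, and Mir200c over Mir141 by 0.18. Without Mir429 the seed ratio was 2.81 ± 0.07, still in the same direction.

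The lower gene of each cluster was the one with the AACACUG seed. Taken as totals, the leading cluster differed between the seed groups. The AAUACUG totals are not like for like: chromosome 4 adds Mir429 and Mir200b, and chromosome 6 has Mir200c alone. Of the AAUACUG counts, 69.5% ± 2.32 (SD, n = 2) came from chromosome 4, with Mir429 at 51.4% ± 2.43, Mir200c at 30.5% ± 2.32 and Mir200b at 18.2% ± 0.11. Of the AACACUG counts, the chromosome 6 gene Mir141 held the larger part, 58.8% ± 0.97, against 41.2% ± 0.97 for Mir200a. Mir200c likewise exceeded Mir200b, the member of the other cluster closest to it in sequence, by 1.60-fold and 1.76-fold.

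**Figure D4:**
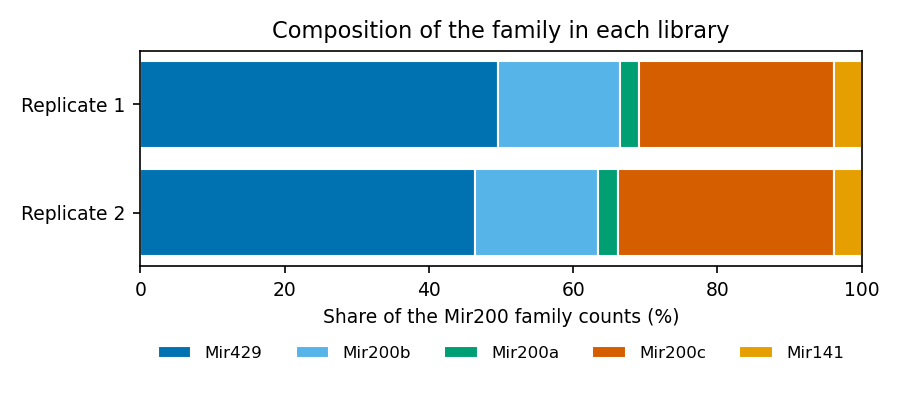
Share of the Mir200 family counts (%) held by each gene, in replicate 1 and replicate 2, with the 3 chromosome 4 genes first and the 2 chromosome 6 genes last. Mir429 holds 49.6% in replicate 1 and 46.4% in replicate 2, Mir200c 27.0% and 30.0%, and the widths of the other 3 genes are nearly equal.

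The family total was 41439 CPM in replicate 1 and 41482 CPM in replicate 2, or 4.14% and 4.15% of all gene counts. Those gene counts leave out reads mapped to several places. Taken as replicate 2 minus replicate 1, the total differed by 43.5 CPM, Mir429 by -1319 CPM and Mir200c by 1280.5 CPM, so the largest differences within the family were opposite in sign and of like size. The equality of the totals depends on the scaling: the family's log2 ratio of replicate 2 over replicate 1 was 0.002 by total counts, and TMM factors or size factors shift every log2 ratio by -0.05 or -0.09.

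The libraries were compared gene by gene with an exact binomial test of the counts, two-sided, and Benjamini-Hochberg adjustment across those 361 genes. It asks how far these 2 libraries differ beyond counting error, and not whether conditions differ. Mir200c was higher in replicate 2, at a log2 ratio of 0.16 (95% interval 0.14 to 0.17, adjusted p = 1.03e-73). Mir429 was lower, at -0.10 (-0.11 to -0.08, adjusted p = 9.78e-47). Mir200a (0.06, adjusted p = 0.0853), Mir200b (0.01, adjusted p = 0.365) and Mir141 (-0.02, adjusted p = 0.433) did not pass. Thus 2 of 5 members differed by adjusted p, 1 in each direction. Of the 104 genes of 1000 CPM or more, a mean level that all 5 members reached, 81 did. Among all detected genes 42.1% did, of which the larger part, 24.7% of genes tested, had more in replicate 2, and 17.5% had more in replicate 1. That background split was 89 against 63 genes by total counts, 74 against 94 with TMM factors and 58 against 115 with size factors. No member reached a log2 ratio of 1 in either direction, and 1.11% of all detected genes passed both that and the adjusted p.

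These calls rest on counting error alone and on the scaling. With TMM factors Mir200b was called too, with its sign reversed (-0.04, adjusted p = 0.00108), as was Mir141 (-0.08, adjusted p = 0.00285). With size factors the same 4 members were called and Mir200a was at -0.03 (adjusted p = 0.377), also reversed. Mir200c was above 0 and Mir429 below 0 under each of these scalings. With edgeR's exact test at an assumed dispersion of 0.01, which allows for a spread between biological replicates, none of the 5 members passed by adjusted p or by an unadjusted p under 0.05.

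The members' ratios were then placed among those of other genes. Their median log2 ratio was 0.01, with 3 above 0 and 2 below, beside a median of 0.04 over all 361 detected genes, with 206 above 0 and 155 below. Of the 104 genes of 1000 CPM or more, 34 had a larger absolute log2 ratio than Mir200c and 59 a larger one than Mir429. For Mir200b that number was 96, for Mir141 90 and for Mir200a 74. By total counts, Mir200c thus lay above the median absolute log2 ratio of those 104 genes, 0.11, and the other 4 members below it. This placement depends on the scaling and was not repeated with other factors. With size factors Mir200c was at 0.07 and Mir429 at -0.19. A ratio between members does not depend on the scaling: Mir429 exceeded Mir200c by 1.84-fold in replicate 1 and 1.54-fold in replicate 2.

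**Figure D5:**
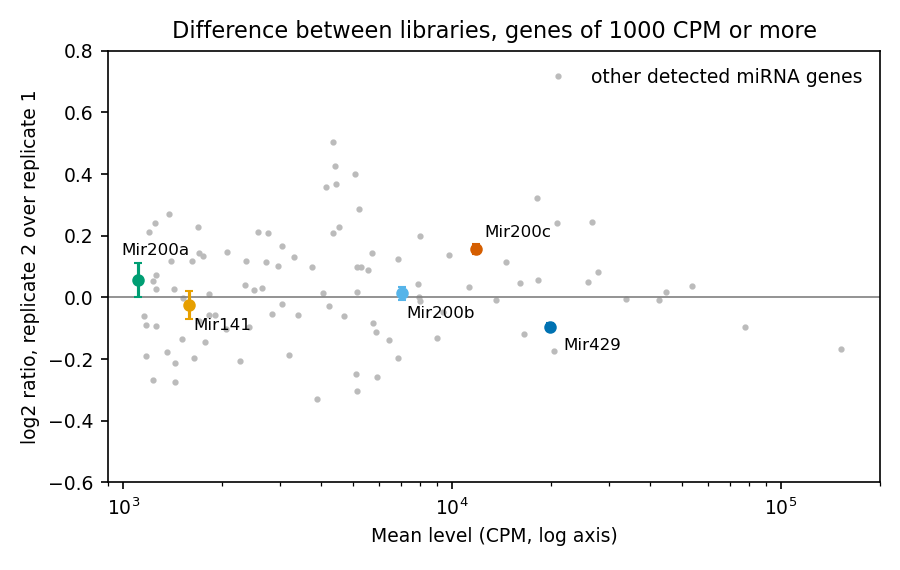
Log2 ratio of replicate 2 over replicate 1 by total counts against mean level in CPM (log axis) for the genes of 1000 CPM or more, with the Mir200 family in colour and 95% counting intervals. Mir200c lies at 0.16 and Mir429 at -0.10, within the range of the other genes; with TMM factors Mir200b, and with size factors also Mir200a, change sign.

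The reads of the family came from the annotated strand. All 5 members had 0 counts in the opposite-strand column of both libraries. For Mir429 that allows an opposite-strand level of up to 0.003% of its counts in either library, and for Mir200a, the least abundant, up to 0.055% in replicate 1 and 0.057% in replicate 2, where 3 counts are taken as the limit of a count of 0.

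Other microRNAs tied to the same switch were then set beside the family. ZEB proteins also repress Mir203 and the Mir183-Mir96-Mir182 cluster, and Mir205 targets Zeb1 and Zeb2 as the Mir200 family does. All 5 of these genes were detected, and together they reached 24106 CPM in replicate 1 and 25635 CPM in replicate 2. The Mir200 family was higher than this group, by 1.72-fold and 1.62-fold.

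Mir205, a microRNA of stratified epithelia, had 9300 CPM in replicate 1 and 10237 CPM in replicate 2, below Mir200c and above Mir200b in each library. Mir203, known from the differentiating layers of such epithelia, had 7329 and 6391 CPM, above Mir200b in replicate 1 and below it in replicate 2. Mir182 had 3766 and 5062 CPM, Mir183 2602 and 2661 CPM, and Mir96 1109 and 1284 CPM. The last 3 lay below Mir200b in both libraries. Mir96 exceeded Mir200a in both and did not reach Mir141.

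Between the libraries, 4 of these 5 genes differed by adjusted p of the exact binomial test. Of those, 3 were higher in replicate 2 and 1 in replicate 1. Among all detected genes 42.1% differed. Among the 104 genes of 1000 CPM or more, a mean level that all 5 ZEB-linked genes reached, 81 did. Mir182 had the largest ratio of the 5, at 0.43 on the log2 scale (adjusted p = 2.79e-201), followed by Mir96 at 0.21, Mir203 at -0.20 and Mir205 at 0.14. Mir183 was at 0.03 (adjusted p = 0.146) and changed sign with TMM factors (-0.02) and size factors (-0.06, adjusted p = 0.00350), while the other 4 kept their sign and passed under both. The median was 0.14, beside 0.01 for the Mir200 family and 0.04 for all detected genes.

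Markers of other tissues were present alongside the family, and their values are given for replicate 1 and then replicate 2. The glandular and endocrine epithelial microRNA Mir375 had 5552 and 4678 CPM, and the intestinal list of 4 genes 1560.4 and 1309 CPM. The mesenchymal list, led by Mir214, had 14629 and 15863 CPM, the smooth muscle list, led by Mir143, 164146 and 146512 CPM, and the endothelial Mir126a 21613 and 19164 CPM. The erythroid list had 147 and 213 CPM, the leukocyte list 560.1 and 598 CPM, the liver microRNA Mir122 56.7 and 65.8 CPM, and Mir137 of the neural list 1669 and 1832 CPM. Mir124a-1, Mir124a-2 and Mir9-2 of that list had 0 counts. Mir9-2 shares its mature sequence with 2 other precursors, and the Mir124a genes are known as copies of one another, so their reads can map to several places and be counted for no gene, and these zeros say nothing of their expression. For the same reason the mesenchymal and intestinal totals may be too low. Mir199a-1, Mir199a-2 and Mir199b (means of 8.8, 139 and 482 CPM) share mature sequence with one another, as do Mir194-1 and Mir194-2.

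These lists differed between the libraries in both directions. On the log2 scale, replicate 2 over replicate 1 by total counts, the smooth muscle list was at -0.16, Mir126a at -0.17, Mir375 at -0.25 and the intestinal list at -0.25, with the sign of Mir429 (-0.10). The mesenchymal list was at 0.12, Mir137 at 0.13, the leukocyte list at 0.10, Mir122 at 0.21 and the erythroid list at 0.53, with the sign of Mir200c (0.16). The squamous epithelial list of Mir205 (0.14) and Mir203 (-0.20) totalled 16628.5 CPM in replicate 1 and 16628.3 CPM in replicate 2. The erythroid and leukocyte lists were mixed too. Mir451a was at 0.67 and Mir144 at -0.42. Mir223 was at 0.06, Mir155 at 0.36 and Mir150 at -0.26. Neither Mir144 nor Mir150 passed by adjusted p of the exact binomial test. The part of any of them in the difference within the family was not tested.

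Genes of like level were taken as the 2 outside the family nearest to each member by the distance of log2 CPM over the 2 libraries. Mir126a (distance 0.07) and Mir99b (0.21) were nearest to Mir429, and Mirlet7d (0.13) and Mir21a (0.31) to Mir200c. Mir93 (0.10) and Mir203 (0.16) were nearest to Mir200b, Mir484 (0.007) and Mir15b (0.10) to Mir141, and Mir148a (0.02) and Mir181a-1 (0.12) to Mir200a. With 2 libraries of 1 tissue, this describes like levels and nothing further.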

How the data were processed

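The deposited values are raw counts per gene, 1 table per library, made by the authors on mm10 with GENCODE M4, per the text deposited beside the tables. The aligner is not given in the sources used here, and neither is the counting program. The both-strand column was used. Reads mapped to several places, 27.6% ± 0.28 of all reads (SD, n = 2), belong to no gene and were left out of totals. Symbols, coordinates and hosts are from GENCODE M21 on the same assembly. Mir200b and Mir200c carry an older identifier version in the tables (ENSMUSG00000065549.2 and ENSMUSG00000065462.2) than in M21, so the counted interval may differ.

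CPM uses total gene counts. Detected means 10 or more counts in both libraries. Libraries were compared with an exact conditional binomial test (scipy 1.17.1) at an adjusted p of 0.05. It was run on simulated counts with counting error only, scoring calls that also had an absolute log2 ratio of 1 or more. That simulation does not check calls by adjusted p alone. With 1 group, edgeR's quasi-likelihood test has no contrast. TMM factors and the exact test used edgeR 4.0.16, size factors DESeq2 1.42.0, and folding RNAfold 2.7.2. Intervals and limits cover counting error only, since reads carry no molecular identifiers, and not differences between miRNAs in reads per molecule. Named genes are the 5 members, 5 ZEB-linked miRNAs and the 2 nearest genes per member, with other markers given by lists. The members and lists were chosen with earlier results of these data known.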

Additional observations from a re-analysis of the deposited data

How the results depend on the processing

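No paired comparison of conditions was possible because there is 1 group, and 2 libraries are too few for a paired test between members. TMM and size factors, as scaled here, keep the mean of the libraries nearly fixed by construction, so that mean is no check on the family total. The gap between libraries did change: the SD of the family total rose from 30.7 CPM to 1040 CPM with TMM factors and 1803 CPM with size factors. The mean family total was 27913 CPM with reads mapped to several places in the totals. It was 66000.4 CPM without the 5 most abundant genes in them, and 42630 CPM with the own-strand column. Leaving out each library in turn, the total ran from 41439 to 41482 CPM, the log2 cluster ratio from 0.97 to 1.17 and the log2 seed ratio from 3.84 to 3.85. The own-strand column could not change either ratio, since no member had opposite-strand counts. Divided by precursor length, the cluster ratio was 0.87 and the seed ratio 3.90. As a mean per gene they were 0.48 and 3.26. Without Mir429 they were -0.72, reversed, and 2.81. The members called between libraries were 2 by total counts, 4 with TMM factors, 4 with size factors and 0 with edgeR's exact test at an assumed dispersion of 0.01. In that test 3 of the 361 genes passed by adjusted p and 19 by an unadjusted p under 0.05, against 152 in the binomial test, and 2 passed with a log2 ratio of 1 as well, against 4. The test's construction, which adds a spread between replicates, lowers these counts. Mir200b reversed to -0.0395 with TMM factors and -0.0771 with size factors, and Mir200a to -0.0330 with size factors. The share of called genes that were higher in replicate 2 was 58.6% by total counts, 44.0% with TMM factors and 33.5% with size factors. With 2 libraries, no alternative adds independent evidence.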
